A study of Homo sapiens with 8 samples.

Results

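The Dickkopf (DKK) secreted antagonists, their Kremen receptors and the LRP co-receptors of Wnt signalling were examined in SW480 cells that overexpressed SPOCK1. The set was named gene by gene: DKK1, DKK2, DKK3, DKK4, KREMEN1, KREMEN2, LRP5, LRP6 and LRP4, which are 9 of the 58735 genes in the count table. It was chosen because DKK1 on the one side and DKK3, DKK4 and KREMEN1 on the other differed in opposite directions between the SPOCK1 and vector libraries. The differences of the members between the groups are therefore given as a description. Where a member is said to be among the genes called, that repeats the choice and supports nothing. Of the 9 members, 8 passed the filter on low counts and DKK2 did not.

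SW480 is an established human colorectal adenocarcinoma line with epithelial features and a truncated APC protein, so that beta-catenin is poorly degraded even without signals at the receptor. The SPOCK1 group carried a lentiviral construct for stable expression of flag-tagged SPOCK1, a secreted proteoglycan of the testican family. The vector group carried the empty lentivirus, and both groups were selected with puromycin. Bulk RNA was sequenced in 4 libraries of each group. Whether separate cultures or infections stand behind the 4 libraries of a group is not stated in the labels. Any p given here thus rests on variation among libraries that could be technical, and any difference between the selected cell populations as such cannot be told apart from SPOCK1.

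Wnt ligands bring a Frizzled receptor together with LRP5 or LRP6, and the phosphorylated tail of the co-receptor then recruits Axin, which slows the breakdown of beta-catenin. DKK1 binds LRP5 and LRP6 and blocks this step, and Kremen proteins bind DKK1 as well and help to remove the co-receptor from the cell surface. DKK1 is itself a known target of beta-catenin and TCF in colorectal cells, in which it is part of a negative feedback.

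Counts assigned to genes summed to between 35643585 and 42812951 per library. SPOCK1 had 6719, 7828, 9712 and 8964 counts in the SPOCK1 libraries, against 6, 0, 3 and 6 counts in the vector libraries, so the labels matched the transgene in all 8. Of 15790 genes tested, 165 differed at an adjusted p below 0.05, of which 39 were higher and 126 lower in SPOCK1 cells. Of 12 colorectal epithelial markers, 7 passed the filter, led by KRT8 and KRT18, and the 12 summed to between 14508.6 and 16200.4 CPM (counts scaled to a common library total) in SPOCK1 libraries and between 12929.2 and 15829.3 CPM in vector libraries. One of them, CDH1, was called lower, with 11.2 ± 1.21 CPM in SPOCK1 libraries and 17.8 ± 1.29 CPM in vector libraries (edgeR adjusted p = 0.00537), and its part in the results was not tested. CDH17, CDX1, LGALS4, KRT20 and CEACAM5, also among the 12 markers, had a mean below 0.1 CPM in both groups. Fibroblast markers summed to between 1.05 and 1.82 CPM in SPOCK1 libraries and between 1.16 and 2.29 CPM in vector libraries, with DCN and LUM at 0. Immune markers summed to between 0.924 and 1.88 CPM in SPOCK1 libraries and between 1.36 and 1.80 CPM in vector libraries, and endothelial markers to between 0.912 and 1.39 CPM in SPOCK1 libraries and between 0.593 and 1.38 CPM in vector libraries, with CDH5 and KDR at 0. Ribosomal RNA genes took 0.612% ± 0.045 of the counts in SPOCK1 libraries and 0.715% ± 0.017 in vector libraries (SD, n = 4 each), with no overlap, and the part of this difference in the results was not tested.

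The promoters of DKK1 and LRP5 are shown because the sequence table used here matched these 2 of the 9 members, an antagonist and a co-receptor that it can bind. They are the 250 bases before the annotated start (RefSeq, GRCh38.p14), at chr10:52314031-52314280 and chr11:68312341-68312590, both on the plus strand. Capitals mark the TCF/LEF and TATA box letters in DKK1 and the GC box letters GGGCGG in both.
DKK1: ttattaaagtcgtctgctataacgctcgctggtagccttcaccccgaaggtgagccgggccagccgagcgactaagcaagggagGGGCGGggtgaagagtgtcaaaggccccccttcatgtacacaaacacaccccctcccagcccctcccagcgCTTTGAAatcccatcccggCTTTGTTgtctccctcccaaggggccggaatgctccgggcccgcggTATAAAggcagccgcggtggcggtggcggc
LRP5: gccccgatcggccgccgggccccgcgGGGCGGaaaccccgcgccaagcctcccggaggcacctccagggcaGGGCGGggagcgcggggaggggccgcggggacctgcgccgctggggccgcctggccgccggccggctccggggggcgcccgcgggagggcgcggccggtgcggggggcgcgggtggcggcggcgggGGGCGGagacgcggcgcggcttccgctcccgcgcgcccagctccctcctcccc
In the DKK1 window, CTTTGAA lay at -95 to -89, CTTTGTT at -76 to -70 and TATAAA at -30 to -25 relative to the start, and GGGCGG at -166 to -161. The LRP5 window also held GGGCGG, at -224 to -219, -179 to -174 and -53 to -48, and none of the TCF/LEF, TATA box or CCAAT box letters. The letters searched, on both strands, were CTTTGAA for TCF/LEF together with the variant CTTTGAT, the variant CTTTGTA and the variant CTTTGTT, then TATAAA for the TATA box, GGGCGG for the GC box and CCAAT for the CCAAT box. Of 35116 promoter windows, 12% held TCF/LEF letters, 10.7% TATAAA, 42.6% GGGCGG and 32% CCAAT. Such matches are letters only and do not show binding. The GC content was 62.8% in the DKK1 window and 87.2% in the LRP5 window, against a median of 58% over all windows.

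DKK1 (ENSG00000107984), the best studied antagonist of the family, was the member with more RNA in SPOCK1 cells. It lies at chr10:52314296-52318042 on the plus strand, in the deposited coordinates, which match GENCODE release 29 (GRCh38) here and for the other members. SPOCK1 libraries 1 to 4 had 15.2, 10.9, 11.7 and 10.2 CPM of DKK1, against 6.66, 6.75, 8.08 and 7.09 CPM in vector libraries 1 to 4. The groups did not overlap, and SPOCK1 library 1 stood highest. The means were 12.0 ± 2.20 CPM in SPOCK1 cells and 7.14 ± 0.652 CPM in vector cells (SD, n = 4 each). DKK1 was thus 1.68-fold higher, with a log2 fold change of 0.75 ± 0.14 (SE). Without SPOCK1 library 1 the log2 fold change was 0.61, the lowest among the fits that left out 1 library. In bulk RNA, a change in the number of cells that make a transcript and a change in RNA per cell cannot be told apart. The antisense gene PRKG1-AS1 overlaps 212 bases of DKK1 and had 40 counts over the SPOCK1 libraries and 17 over the vector libraries, which is small beside DKK1.

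DKK4 and DKK3 were both lower in SPOCK1 cells, opposite to DKK1. DKK4 (ENSG00000104371, chr8:42374068-42377232, minus strand), which like DKK1 can inhibit LRP6 signalling, had 24.3, 22.1, 20.1 and 23.4 CPM in SPOCK1 libraries 1 to 4, against 35.8, 30.5, 36.6 and 32.8 CPM in vector libraries 1 to 4. Every SPOCK1 library lay below every vector library. The log2 fold change was -0.60 ± 0.10 (SE), from means of 22.5 ± 1.84 CPM in SPOCK1 cells and 33.9 ± 2.80 CPM in vector cells. DKK3 (ENSG00000050165, chr11:11963106-12009769, minus strand) is the divergent member of the family, for which binding to LRP5 and LRP6 is not established. It had 34.1, 33.2, 31.9 and 37.6 CPM in SPOCK1 libraries 1 to 4, against 46.6, 49.5, 43.9 and 48.9 CPM in vector libraries 1 to 4. These groups did not overlap either, and the log2 fold change was -0.47 ± 0.09 (SE), a mean of 34.2 ± 2.45 CPM in SPOCK1 cells against 47.2 ± 2.54 CPM in vector cells.

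DKK2 (ENSG00000155011, chr4:106921802-107283806, minus strand), which can inhibit or activate Wnt signalling depending on the cell, was close to undetected. It had 0 counts in all 4 SPOCK1 libraries and 0, 1, 2 and 0 counts in vector libraries 1 to 4. The 0 of the SPOCK1 libraries together allows up to 0.0199 CPM, so no difference was detectable at this depth.

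**Figure D1:**
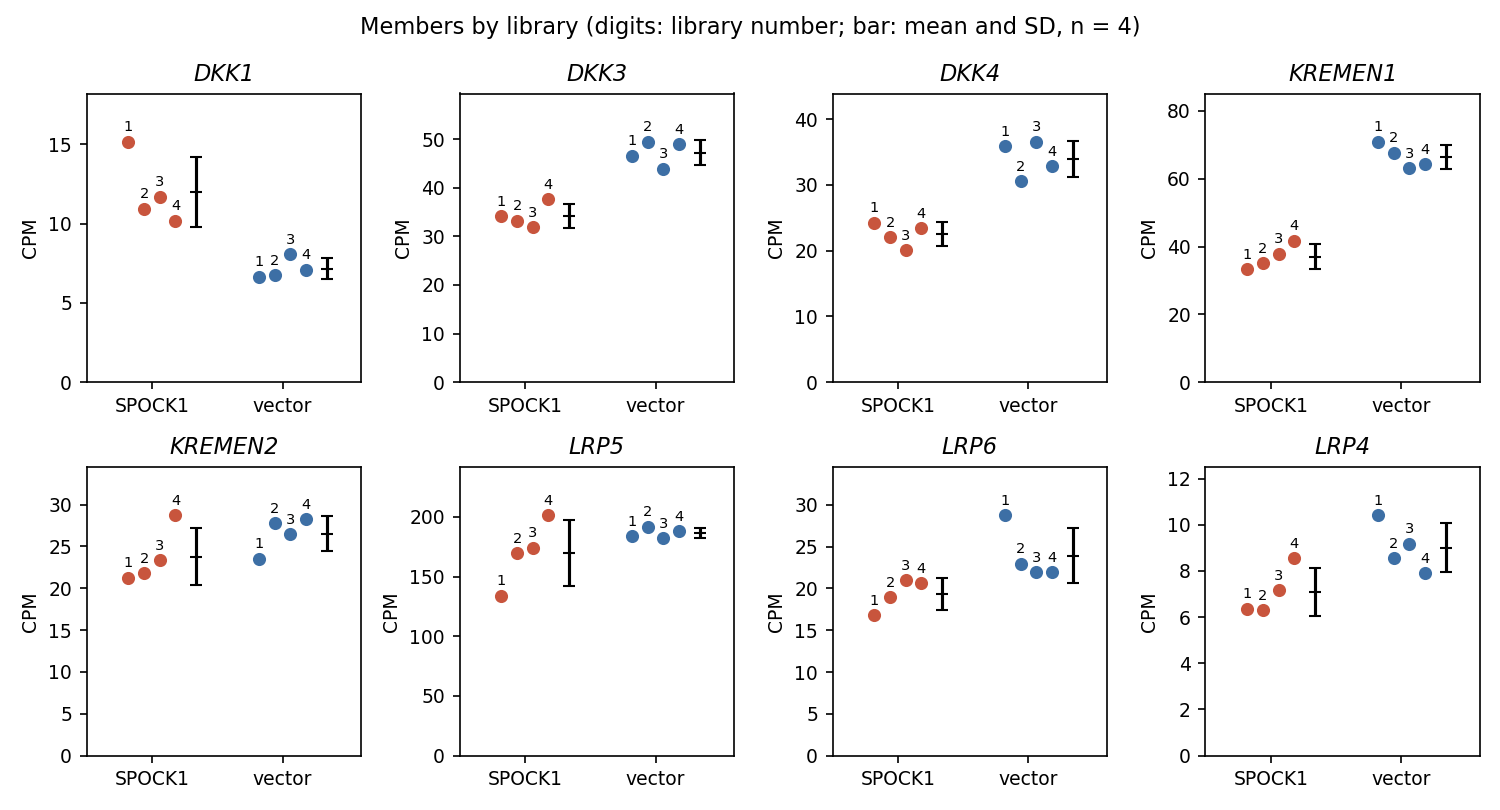
Level of the 8 members that passed the filter on low counts, in CPM on an axis from 0 for each gene; each point is 1 library with its number, SPOCK1 libraries left and vector libraries right, and the bars are the mean and SD (n = 4). DKK1 lies higher in SPOCK1 cells (mean 12.0 CPM in SPOCK1 cells, 7.14 CPM in vector cells), and KREMEN1 lies lower (mean 37.0 CPM in SPOCK1 cells, 66.5 CPM in vector cells).

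KREMEN1 (ENSG00000183762) had the largest change of the members in SPOCK1 cells. It encodes a transmembrane receptor that binds DKK1 and LRP6, and it lies at chr22:29073078-29168333 on the plus strand. SPOCK1 libraries 1 to 4 had 33.3, 35.0, 37.9 and 41.7 CPM, against 71.0, 67.7, 63.1 and 64.2 CPM in vector libraries 1 to 4. The highest SPOCK1 library stayed well below the lowest vector library. The log2 fold change was -0.85 ± 0.09 (SE), so its level fell by 44.4%, and the means were 37.0 ± 3.66 CPM in SPOCK1 cells and 66.5 ± 3.58 CPM in vector cells. AL021393.1, antisense to KREMEN1, had 0 counts over the SPOCK1 libraries and 3 over the vector libraries. The paralog KREMEN2 (ENSG00000131650, chr16:2963944-2968383, plus strand) had 21.3, 21.8, 23.3 and 28.7 CPM in SPOCK1 libraries 1 to 4, against 23.5, 27.8, 26.5 and 28.2 CPM in vector libraries 1 to 4. The KREMEN2 groups overlapped, and its log2 fold change was -0.16 with a 95% interval of -0.39 to 0.08. KREMEN2 shares 360 bases with the opposite-strand gene PKMYT1, which had 85.8 CPM in SPOCK1 cells and 85.2 CPM in vector cells. Whether the counting used strand is not stated, so reads from the shared bases cannot be assigned to either gene with certainty.

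The co-receptors had smaller log2 fold changes than KREMEN1. LRP5 (ENSG00000162337, chr11:68312609-68449275, plus strand) had 134.1, 169.4, 174.2 and 201.5 CPM in SPOCK1 libraries 1 to 4, against 183.7, 191.8, 182.4 and 187.9 CPM in vector libraries 1 to 4. The SPOCK1 libraries were spread around the narrow vector range, and the log2 fold change of -0.14 had an interval of -0.34 to 0.07. Without SPOCK1 library 1 it was -0.04. LRP6 (ENSG00000070018, chr12:12116025-12267012, minus strand), the co-receptor used most widely in Wnt signalling, had 16.8, 19.0, 21.0 and 20.6 CPM in SPOCK1 libraries 1 to 4, against 28.8, 23.0, 21.9 and 21.96 CPM in vector libraries 1 to 4. The LRP6 groups did not overlap, though vector library 1 stood far above the other 3, and the log2 fold change of -0.31 (interval -0.55 to -0.06) became -0.20 without it. LRP4 (ENSG00000134569, chr11:46856868-46918642, minus strand), a receptor for agrin at the neuromuscular junction that also binds DKK1, had 6.36, 6.30, 7.16 and 8.55 CPM in SPOCK1 libraries 1 to 4, against 10.4, 8.56, 9.19 and 7.90 CPM in vector libraries 1 to 4. LRP4 overlapped between the groups in 1 SPOCK1 library, number 4, and its log2 fold change was -0.35 with an interval of -0.64 to -0.05. The intervals are not adjusted for the number of genes tested. Neither LRP6 nor LRP4 was called (edgeR adjusted p = 0.257 for LRP6 and 0.295 for LRP4). LRP4-AS1, which overlaps LRP4 on the opposite strand, had 46 counts over the SPOCK1 libraries and 40 over the vector libraries. BCL2L14, on the opposite strand to LRP6, had 0 counts over the SPOCK1 libraries and 2 over the vector libraries, and no overlapping gene not named here had more than 4 counts in either group.

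Across the 8 tested members, 7 had a log2 fold change below 0, and the median was -0.33, beside -0.0042 over all genes tested. Of the 8, DKK1 was among the genes called higher, and DKK3, DKK4 and KREMEN1 among those called lower. Over all genes, 1.04% were called, 0.247% higher and 0.798% lower. Groups that did not overlap were seen for DKK1 on the higher side and for DKK3, DKK4, KREMEN1 and LRP6 on the lower side, where over all genes 8.23% did not overlap, 3.43% higher and 4.8% lower. Since the members were chosen on this contrast, nothing is read from these counts. DKK1 was no longer called without vector library 1 (log2 fold change 0.71), nor was DKK3 without vector library 2, SPOCK1 library 2 or SPOCK1 library 3 (-0.44, -0.45 and -0.43). When GC content and length were taken out of the counts, the log2 fold changes were 0.68 for DKK1, -0.43 for DKK3, -0.64 for DKK4, -0.76 for KREMEN1, -0.02 for KREMEN2, -0.02 for LRP5, -0.26 for LRP6 and -0.25 for LRP4.

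**Figure D2:**
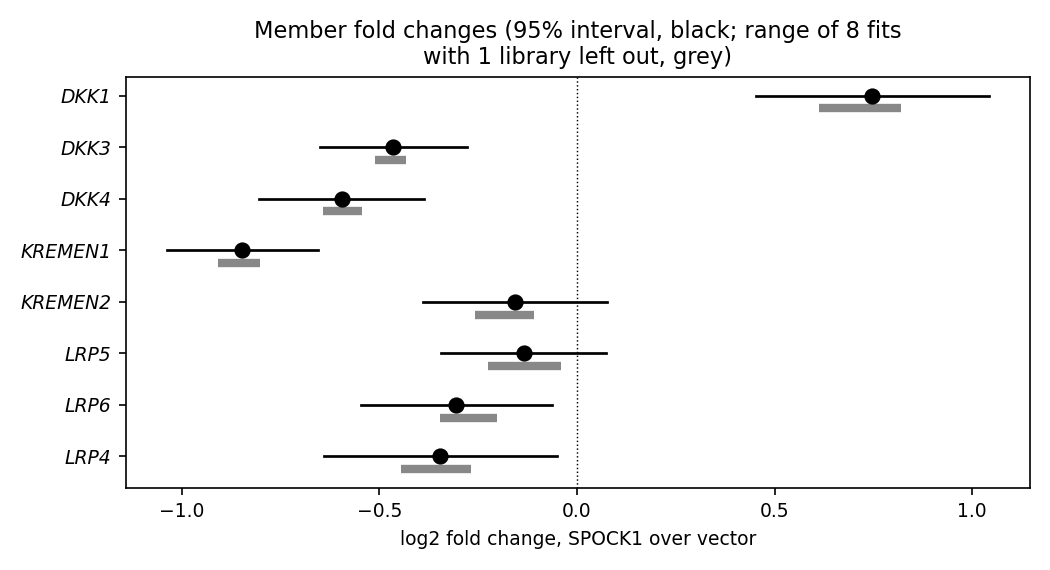
Log2 fold change (SPOCK1 over vector) of the 8 members (points) with its 95% interval (black lines) and its range over 8 fits that each left out 1 library (grey bars). DKK1 lies at 0.75, right of 0, and KREMEN1 lies furthest left at -0.85. The intervals of KREMEN2 and LRP5 include 0. Intervals are not adjusted for the number of genes tested, and LRP6 and LRP4 were not called either.

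The make-up of the expressed DKK RNA was compared per length, in CPM per kilobase (CPM divided by the deposited gene length in kilobases). The sum of DKK1, DKK3 and DKK4 was 40.8, 36.2, 34.1 and 38.3 CPM per kilobase in SPOCK1 libraries 1 to 4, against 52.3, 47.0, 53.3 and 49.6 in vector libraries 1 to 4. The total was lower in every SPOCK1 library, although DKK1 was higher. DKK1 made up 16.9%, 13.7%, 15.6% and 12.0% of that sum in SPOCK1 libraries 1 to 4, against 5.77%, 6.51%, 6.88% and 6.48% in vector libraries 1 to 4. DKK4 was the most abundant of the 3 per length in both groups, with a share of 67.3% ± 1.24 in SPOCK1 cells and 75.0% ± 2.03 in vector cells (SD, n = 4 each). The DKK3 share was 18.2% ± 1.203 in SPOCK1 cells and 18.6% ± 2.00 in vector cells, and these ranges overlapped. With the longest transcript as the length, the DKK3 share was 28.9% in SPOCK1 cells and 29.9% in vector cells, and the DKK4 share 56.1% in SPOCK1 cells and 63.4% in vector cells. The ratio of DKK4 to DKK1 was 4.71 ± 0.781 in SPOCK1 cells and 11.8 ± 1.03 in vector cells, and that of KREMEN1 to KREMEN2 was 0.512 ± 0.0258 in SPOCK1 cells and 0.828 ± 0.108 in vector cells. The ratio of LRP5 to LRP6 overlapped between groups, at 14.7 ± 1.34 in SPOCK1 cells and 13.3 ± 1.71 in vector cells. These ratios rest on the members' chosen differences and are descriptions.

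In SPOCK1 cells the order per length was LRP5 (27.5 ± 4.49 CPM per kilobase), DKK4 (25.1 ± 2.05), KREMEN2 (9.10 ± 1.31), DKK3 (6.77 ± 0.484), DKK1 (5.44 ± 0.999), KREMEN1 (4.63 ± 0.459), LRP6 (1.87 ± 0.184) and LRP4 (0.825 ± 0.122). In that order LRP5 and DKK4 overlapped, as did DKK3 with DKK1 and DKK1 with KREMEN1. In vector cells it was DKK4 (38.0 ± 3.13), LRP5 (30.3 ± 0.696), KREMEN2 (10.1 ± 0.804), DKK3 (9.34 ± 0.503), KREMEN1 (8.33 ± 0.448), DKK1 (3.24 ± 0.295), LRP6 (2.31 ± 0.317) and LRP4 (1.05 ± 0.125). There KREMEN2 overlapped DKK3, and DKK3 overlapped KREMEN1. DKK4 and LRP5 exchanged the first place between the groups, and the mean of KREMEN1 stood above that of DKK1 in vector cells and below it in SPOCK1 cells. With the longest transcript as the length in place of all exons, DKK3 and KREMEN2 changed places in both groups. In vector cells LRP5 then had 36.1 ± 0.831 CPM per kilobase, inside the DKK4 range of 34.2 to 40.9. DKK4 and LRP5 thus overlapped in vector cells too with that length.

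**Figure D3:**
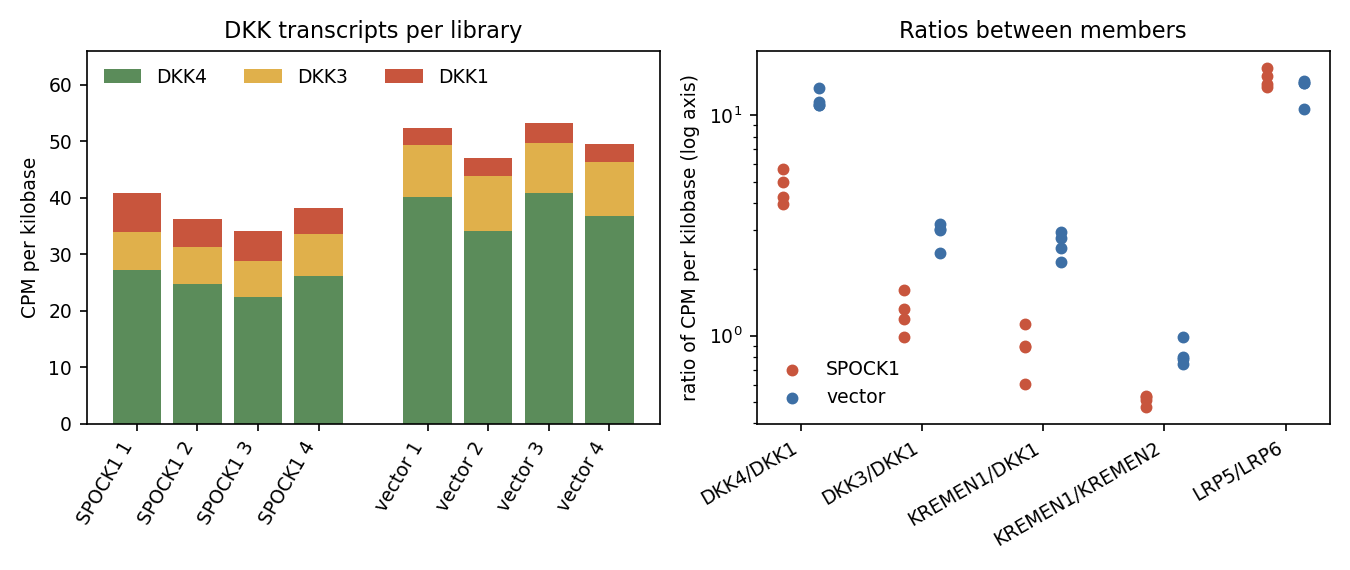
Left, stacked levels of DKK4, DKK3 and DKK1 in CPM per kilobase in each library, SPOCK1 libraries before vector libraries; right, ratios of CPM per kilobase between members on a log axis, each point 1 library. The DKK1 layer takes 12.0% to 16.9% of the sum in SPOCK1 libraries and 5.77% to 6.88% in vector libraries.

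Some pairs of members also varied together between libraries of 1 group, and others did not. With the group means taken out, DKK1 was inversely related to LRP5 (Pearson r = -0.883) and to KREMEN1 (r = -0.798) over the 8 libraries. LRP5 varied mostly among SPOCK1 libraries (SD 27.7 CPM, against 4.29 CPM among vector libraries). Any r with LRP5 thus rests mainly on the SPOCK1 libraries. KREMEN1 was positively related to LRP5 (r = 0.812) and LRP4 (r = 0.847). These pairs were picked for high values, and r was near 0 for DKK3 with DKK4 (-0.00249) and for KREMEN2 with LRP6 (-0.0202). High values also arose outside the set: among 11798 other protein-coding genes compared with DKK1, the highest r within groups was 0.994. SPOCK1 library 1 had the highest DKK1 and the lowest KREMEN1 and LRP5, and SPOCK1 library 4 the lowest DKK1 and the highest KREMEN1 and LRP5. The levels share the libraries and their base composition: libraries 2 and 4 of both groups held relatively more RNA of GC-rich genes than libraries 1 and 3 (2636 genes of highest minus 2636 of lowest GC content, on the log2 scale, 0.026 and 0.264 in SPOCK1 libraries and 0.208 and 0.255 in vector libraries, against -0.266 and -0.191 in SPOCK1 libraries and -0.129 and -0.167 in vector libraries). With that measure r was -0.684 for DKK1 (GC content 43.5%), 0.693 for LRP5 (62.8%), 0.78 for KREMEN2 (68.8%) and 0.817 for DKK3 (53.4%). It was 0.444 for KREMEN1 (55.6%), -0.336 for DKK4 (52%), 0.0343 for LRP4 (55.3%) and -0.0104 for LRP6 (40.2%). The part of base composition in the correlations between members was not tested. With GC content and length taken out, DKK1 against LRP5 gave r = -0.752, DKK1 against KREMEN1 r = -0.352, KREMEN1 against LRP5 r = 0.441 and KREMEN1 against LRP4 r = 0.841. The lowest value was then that of DKK1 against LRP6, r = -0.832, which was -0.67 before. These correlations are descriptions of 8 libraries. Within libraries 2 and 4 the log2 fold change was 0.61 for DKK1, -0.48 for DKK3, -0.48 for DKK4 and -0.78 for KREMEN1, and within libraries 1 and 3 it was 0.87, -0.45, -0.71 and -0.91 in that order. For KREMEN2, LRP5, LRP6 and LRP4 it was -0.15, -0.04, -0.19 and -0.15 within libraries 2 and 4. Within libraries 1 and 3 these members had -0.16, -0.25, -0.42 and -0.53, so the LRP values differed between the pairs of libraries.

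**Figure D4:**
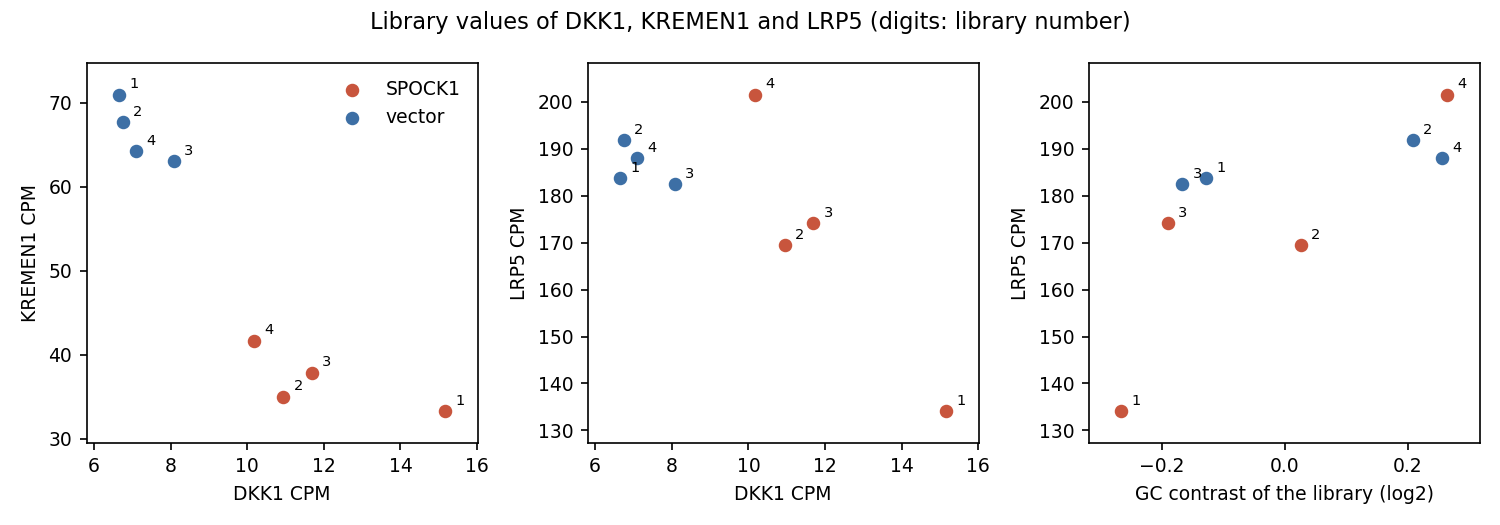
KREMEN1 against DKK1, LRP5 against DKK1 (both in CPM) and LRP5 against the GC contrast of the library (log2), with SPOCK1 libraries in red, vector libraries in blue and the library number beside each point. Within the SPOCK1 libraries, library 1 has the highest DKK1 (15.2 CPM) with the lowest LRP5 (134.1 CPM), and library 4 the reverse.

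The protein-coding genes with the pattern most like each of the 4 chosen members, by Pearson r of log2 CPM over 8 libraries among genes of at least 1 CPM on average, were as follows. For DKK1 they were TSPAN13 (r = 0.985), ARIH2 (r = 0.982) and PINX1 (r = 0.98). For DKK3 they were MEX3B (r = 0.993), SEMA6B (r = 0.988) and ENTPD8 (r = 0.982). For DKK4 they were KCNJ11 (r = 0.977), GRM8 (r = 0.976) and ADGRB1 (r = 0.971). For KREMEN1 they were ADAMTSL2 (r = 0.99), FAM189A1 (r = 0.989) and C6orf223 (r = 0.988). These lists include the difference between the groups, which the members share by choice.

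Among 93 other genes of Wnt regulation and the lipoprotein receptor family in 7 lists, 75 were tested. Of these, 3 were lower and 0 higher in SPOCK1 cells at an adjusted p below 0.05 by edgeR's quasi-likelihood test (over all genes 0.798% were lower and 0.247% higher). At an unadjusted p below 0.05 the numbers were 19 lower and 2 higher (over all genes 8.17% were lower and 5.49% higher), and by DESeq2 6 lower and 0 higher (over all genes 1.96% and 0.776%). Of the 75, 55 (73.3%) had a log2 fold change below 0, with a median of -0.083, against 50.8% of all genes tested and a median of -0.0042. The lists were chosen with earlier results of these data known, so these numbers are a description. The other Wnt antagonists had 1 of 9 lower, the lipoprotein receptor family 1 of 12, and the beta-catenin and TCF targets 1 of 15. None of 22 genes of LRP5 and LRP6 maturation and signalling, 4 of the R-spondin axis, 10 Frizzled receptors and 3 further partners of DKK1 and LRP4 passed the test.

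The 3 that passed were LRP2, CEMIP and APCDD1. CEMIP, which takes part in hyaluronan breakdown, was lower at 39.6 ± 7.50 CPM in SPOCK1 cells, against 66.7 ± 3.26 CPM in vector cells (log2 fold change -0.75 ± 0.11 SE, edgeR adjusted p = 0.00194). APCDD1, a membrane protein that inhibits Wnt signalling, was lower at 830.9 ± 34.3 CPM in SPOCK1 cells, against 1081.6 ± 27.9 CPM in vector cells (-0.38 ± 0.07, edgeR adjusted p = 0.0102), and did not pass without SPOCK1 library 2 (adjusted p = 0.0610). The endocytic receptor LRP2 was low, at 1.71 ± 0.343 CPM in SPOCK1 cells and 3.42 ± 0.977 CPM in vector cells (-1.002 ± 0.23, edgeR adjusted p = 0.0465). It failed the test in 7 of 8 fits that left out 1 library, with adjusted p up to 0.167, and passed only without vector library 3.

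AXIN2, a feedback target that is widely used as a readout of beta-catenin activity, averaged 304.1 ± 22.04 CPM in SPOCK1 cells and 335.5 ± 20.5 CPM in vector cells, and did not pass (log2 fold change -0.14 ± 0.08, edgeR adjusted p = 0.446). MESD, the chaperone that LRP5 and LRP6 need for folding, was at 52.1 ± 4.22 CPM in SPOCK1 cells and 46.5 ± 2.34 CPM in vector cells (0.16 ± 0.09, edgeR adjusted p = 0.429). MESD and CEMIP overlap on opposite strands, so reads from the shared stretch are uncertain for both. The stem cell receptor LGR5 had 4 counts in each group and could not be compared. Of the most abundant gene in each list, DVL1 had a log2 fold change of 0.02 (edgeR adjusted p = 0.949), the LRP6-degrading ZNRF3 -0.21 (0.357), FZD7 -0.06 (0.878), LRPAP1, a chaperone of lipoprotein receptors, 0.09 (0.625), AGRN, which binds LRP4, -0.01 (0.981), and CCND1 -0.12 (0.564). CDK14 and FZD10, chosen after their values were seen, lay furthest out in these lists but had few counts: CDK14 had 79 counts over the SPOCK1 libraries and 17 over the vector libraries (edgeR adjusted p = 0.152), and FZD10 had 32 counts over the SPOCK1 libraries and 108 over the vector libraries (edgeR adjusted p = 0.0769).

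**Figure D5:**
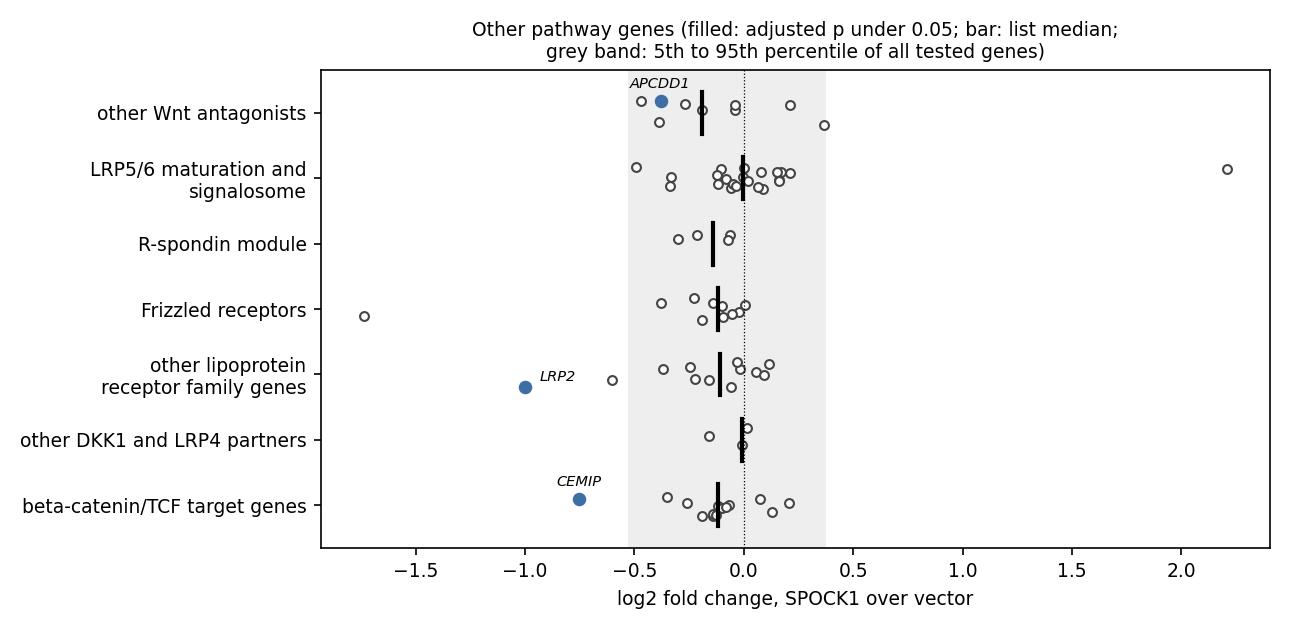
Log2 fold change (SPOCK1 over vector) of the tested genes of the 7 lists. Each point is 1 gene, filled where it passed the test, black bars are list medians and the grey band runs from the 5th to the 95th percentile of all genes tested; LRP2 (-1.002), CEMIP (-0.75) and APCDD1 (-0.38) are those that passed in the lists.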

How the data were processed

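The authors deposited raw read counts per gene for 8 libraries. Per the submitters' processing notes, CASAVA, HISAT2 2.0.5 and featureCounts 1.5.0-p3 were used, whereas the sources used here do not name the build, the strand setting or the treatment of multiply mapped reads. The deposited coordinates and lengths match GENCODE release 29, the length being the exon union for 58724 of 58735 genes and all 9 members.

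Counts were analysed with edgeR 4.0.16 (R 4.3.3): TMM scaling, a filter on low counts (minimum count 10, minimum total 15), the quasi-likelihood test and Benjamini-Hochberg adjustment at 0.05. CPM and CPM per kilobase were computed from the deposited counts on TMM-scaled library totals. Counting error sets the floor of 3 counts for a 0, and intervals are at 95%. DESeq2 1.42.0, GC and length offsets, and leaving out each library were alternatives. The procedure was tested on simulated counts that held no GC trend, so that test does not cover the GC differences among these libraries. The members and lists were chosen with earlier results of these data known. By rule, the genes named were the members, every gene of a list past the test and its most abundant gene, AXIN2, LGR5 and MESD, the 3 genes most like each chosen member, and genes overlapping a member (those with few counts are given together). Marker genes are named as a check of the cell type, and CDK14 and FZD10 were named after their values were seen. Some genes were left out of the lists and of the search for like genes and are not reported here.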

Additional observations from a re-analysis of the deposited data

Results flagged for a closer look

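Values of vector library 1 stood apart from the other 3 vector libraries by Dixon's test, for 3 of 36 groups of 4 values examined; chance flags about 1 in 20. LRP6 had 28.8 CPM in vector library 1, against 21.9 to 23.0 CPM in the other vector libraries. The ratio of DKK4 to DKK1 was 13.3 there, against 11.2 to 11.4 in the others. The ratio of LRP5 to LRP6 was 10.7 there, against 13.9 to 14.4 in the others. This ratio holds the same high LRP6 value. Shares and ratios among the 36 groups are built from the members' values, so the flags are not independent of one another.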

How the results depend on the processing

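No member changed direction in the 16 alternatives. Their calls repeat the choice of the members and show nothing of stability. Of 128 results of members, 9 lost a call, each of DKK1, DKK3, DKK4 or KREMEN1. The other members were not called in the main fit, so they had no call to lose. DKK1 no longer passed without vector library 1 (0.71) or within either pair of libraries; DKK3 without vector library 2 and SPOCK1 library 2 or 3 (-0.44, -0.45, -0.43) or within libraries 1 and 3; DKK4 and KREMEN1 within libraries 1 and 3. The cause was not tested. Against 39 genes higher and 126 lower over all genes, DESeq2 called 113 and 285, no filter beyond 1 count 120 and 279, GC content and length offsets 364 and 254, libraries 1 and 3 alone 1 and 7, and libraries 2 and 4 alone 46 and 94; leaving out 1 library gave 24 to 66 higher and 63 to 171 lower. In the lists (0 higher, 3 lower), DESeq2 called 6 lower, no filter 1 higher and 7 lower, offsets 2 higher and 7 lower, libraries 2 and 4 alone 1 higher, libraries 1 and 3 alone 0 lower, and leaving out 1 library 0 to 1 higher and 1 to 5 lower (1 without SPOCK1 library 2, 5 without SPOCK1 library 4). With offsets, chosen after seeing the data, the relation of DKK1 to LRP5 was -0.752, against -0.883. The DKK1 share was 15.0% in SPOCK1 cells with the longest transcript and 13.8% to 15.4% when 1 library was left out. DVL1 ranged from -0.031 to 0.075, FZD7 from -0.13 to 0.028 and AGRN from -0.14 to 0.076 when 1 library was left out; FZD7 was 0.011 and AGRN 0.12 within libraries 2 and 4, and AGRN 0.19 with offsets. No label says that same-numbered libraries are pairs, so the numbers were not taken as pairs. Over all genes tested, deviations of same-numbered libraries had r = -0.0739, 0.0317, 0.0277 and 0.0817. The GC contrast, however, was higher in libraries 2 and 4 than in libraries 1 and 3 of both groups. Shared handling by number was not tested. With the replicate block 31 genes were higher and 84 lower, and LRP2 no longer passed (edgeR adjusted p = 0.126). The offsets moved the median of all genes by 0.034, to 0.030, the largest move among the alternatives.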
